A study of Mus musculus with 4 samples.

Results

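Atria and ventricles of Mef2a knockout mice were compared here, to describe which genes mark each chamber of the heart when MEF2A is lacking. For every probe set of the array table, the log2 value on the knockout ventricles array was subtracted from the value on the knockout atria array. A gene entered the comparison when the brighter of these arrays reached 5.71, the median of all values in the table, which is called the floor below. Of 21212 probe sets, 18786 carried 1 gene symbol, which gave 18783 genes, and 10121 of these genes lay at or above the floor in the knockout pair.

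The mice were 2 months old and of both sexes, the number of each sex not being given. The 4 groups were wild type (Mef2a+/+) atria, knockout (Mef2a-/-) atria, wild type ventricles and knockout ventricles. Each group is 1 array that carried total RNA pooled in equal molar amounts from 7 mice. No group has a replicate array, so no difference below could be tested or set against a spread between replicates, and every value describes these pools. The type of knockout allele, the part of the gene it removes and the strain are not given in the sources used here, nor whether the same animals gave both chambers. Values are log2 intensities made with RMA, a method that corrects the background, evens out arrays and summarises the probes of a gene. A log2 difference of 1 is 2-fold, and positive differences are higher in atria. Levels of different genes are not compared, because each probe set has its own brightness.

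Atrial and ventricular muscle cells share most of their contractile machinery, but use different light chains of myosin, ion channels and secreted factors. Regulators such as TBX5 and COUP-TFII (Nr2f2) are known for the atrial programme, and IRX4 and HEY2 for the ventricular one. MEF2A belongs to the MADS-box family of transcription factors, which bind A/T-rich sites in muscle genes and act with partners such as GATA4 and under the brake of class IIa histone deacetylases. The related factors MEF2C and MEF2D are also made in the adult heart.

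Signal of the targeted gene Mef2a was 10.41 in knockout atria and 10.34 in knockout ventricles, and 10.32 and 10.28 in the wild type chambers. Its signal was therefore not lower on either array labelled knockout. Which part of the gene the probes cover is not given in the sources used here, nor is the part removed. The genotype labels could therefore not be checked with this signal, and "knockout" below always means knockout-labelled. The chamber labels can be read from defining markers: Myl7 and Nppa were higher on both atrial arrays, and Myl2 and Irx4 on both ventricular arrays. Medians of the 4 arrays lay between 5.66 and 5.75, and values of the knockout atria array were spread less widely, with an interquartile range of 2.97 against 3.18 to 3.21 on the others. With genes ranked by mean level and split into 10 groups of equal size, the median difference of the knockout pair lay between -0.11, in the brightest group, and 0.17, and that of the wild type pair between -0.07 and 0.00. Xist stood at 9.63 and 9.20 in knockout atria and ventricles and the Y-linked gene Eif2s3y at 7.42 and 7.89. The wild type pair had 9.97 and 9.35 for Xist and 7.69 and 7.87 for Eif2s3y, and the part of sex in other differences was not tested.

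Promoters of 6 genes that separate the knockout chambers are shown to set their sequence beside the differences. Each is the 250 bases before the annotated start of transcription, read 5' to 3' on the gene's strand from RefSeq for build GRCm38.p6. Bmp10 is the gene with the largest difference toward atria, and capitals mark AGATAA, a form of the GATA factor site. It lies on the plus strand at chr6:87428744-87428993.
Bmp10: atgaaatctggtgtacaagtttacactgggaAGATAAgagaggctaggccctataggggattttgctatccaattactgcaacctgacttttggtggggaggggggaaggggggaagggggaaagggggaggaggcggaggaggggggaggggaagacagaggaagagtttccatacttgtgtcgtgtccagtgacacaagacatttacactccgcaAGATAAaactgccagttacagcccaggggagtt
The light chain genes Myl7 of atria (minus strand, chr11:5898783-5899032) and Myl3 of ventricles (plus strand, chr9:110763428-110763677) are shown as a pair with opposite chamber patterns. Capitals mark a CArG box, the site of serum response factor.
Myl7: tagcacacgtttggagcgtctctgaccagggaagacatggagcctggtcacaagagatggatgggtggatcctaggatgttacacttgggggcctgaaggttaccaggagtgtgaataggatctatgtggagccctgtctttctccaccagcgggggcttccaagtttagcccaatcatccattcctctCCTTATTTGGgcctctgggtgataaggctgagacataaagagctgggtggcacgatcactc
Myl3: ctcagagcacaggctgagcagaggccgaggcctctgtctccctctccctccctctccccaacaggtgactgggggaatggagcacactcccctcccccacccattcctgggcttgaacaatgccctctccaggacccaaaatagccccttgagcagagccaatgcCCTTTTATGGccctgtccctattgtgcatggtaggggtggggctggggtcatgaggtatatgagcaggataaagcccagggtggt
Xirp2 (plus strand, chr2:67445752-67446001) and Asb14 (plus strand, chr14:26894364-26894613) are shown as examples. Both were higher in knockout ventricles and both hold a MEF2 box and an AGGTCA, which capitals mark on either strand. Rpl3l and Srsf3 were among other such genes. The chamber difference of Asb14 was -1.11 in the knockout and -0.94 in the wild type.
Xirp2: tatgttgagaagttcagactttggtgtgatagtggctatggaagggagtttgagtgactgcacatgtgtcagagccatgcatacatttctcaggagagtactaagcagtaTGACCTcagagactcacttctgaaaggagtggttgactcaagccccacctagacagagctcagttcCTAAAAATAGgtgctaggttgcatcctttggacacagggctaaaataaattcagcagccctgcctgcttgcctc
Asb14: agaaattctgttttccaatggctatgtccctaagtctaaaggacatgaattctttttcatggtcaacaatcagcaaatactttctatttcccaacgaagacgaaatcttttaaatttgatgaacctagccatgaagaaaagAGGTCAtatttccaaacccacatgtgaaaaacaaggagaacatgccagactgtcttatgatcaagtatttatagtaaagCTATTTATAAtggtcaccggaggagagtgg
Perm1 (plus strand, chr4:156215677-156215926), a muscle regulator of mitochondrial genes, is shown with its AGGTCA in capitals, the core site of nuclear receptors such as ERR and PPAR factors.
Perm1: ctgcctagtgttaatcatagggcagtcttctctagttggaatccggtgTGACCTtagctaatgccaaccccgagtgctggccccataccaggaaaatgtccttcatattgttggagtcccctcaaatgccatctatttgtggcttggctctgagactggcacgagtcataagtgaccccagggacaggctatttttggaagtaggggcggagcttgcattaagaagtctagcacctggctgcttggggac

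These motifs were searched for on both strands in the 250 bases before every annotated start, and a gene was counted when any of its windows held a match. The 5 motifs were the nuclear receptor core AGGTCA, the GATA form AGATAA, the T-box core AGGTGT, the CArG box and the MEF2 box, and no site of a motif overlapped a site of another in the promoters of genes past 2-fold. Only genes with a RefSeq promoter entered: 234 of the 288 past 2-fold toward knockout ventricles and 251 of the 350 toward knockout atria. Likewise, 8194 of the 10121 genes above the floor and 180 of the 222 genes higher in wild type ventricles entered. The MEF2 box was in 16 of the 234 ventricular genes (6.84%), in 5 of the 251 atrial genes (1.99%), and in 178 of the 8194 genes above the floor (2.17%). Of all 27025 genes with a RefSeq promoter, 3.42% held it, and of 180 genes higher in wild type ventricles 5.0%. AGGTCA was in 60 of the 234 ventricular genes (25.6%), 32 of the 251 atrial genes (12.7%), 12.9% of the genes above the floor and 15.8% of all genes, with 23.9% of the wild type ventricular genes. For the other motifs the atrial and ventricular shares were closer to each other. AGATAA was in 8.37% of atrial and 9.83% of ventricular genes (6.81% above the floor, 11.4% of all), and AGGTGT in 30 of the 251 and 28 of the 234 (11.2% and 13.6%). The CArG box was in 2.79% and 3.42% (7 and 8 genes), both above its shares of 1.54% above the floor and 1.62% of all. Among the 16 ventricular genes with a MEF2 box were Rpl3l, Fhl2, Xirp2, Asb5 and Asb14. The genes with AGGTCA included Myl2, Perm1, Plin5, Ucp3, Cd36, Acadvl and Rxrg. A match is a run of letters, not a bound site, and no test was run on the shares.

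In the knockout pair 350 of 10121 genes (3.46%) passed 2-fold toward atria and 288 (2.85%) toward ventricles, 6.3% together. The median difference of all 10121 genes was -0.05, with quartiles of -0.30 and 0.20, and 44.6% of genes had a positive value. The atrial side reached further: 87 genes (0.86%) passed 4-fold toward atria and 28 (0.277%) toward ventricles, where the wild type pair had 92 (0.917%) and 28 (0.279%). In the knockout pair 34 and 8 passed 8-fold, and 15 and 1 passed 16-fold. On 149 of the 350 atrial genes and 73 of the 288 ventricular genes the dimmer array lay below the floor, so part of these differences is set by background. This limit holds for every such gene below, also where it is not repeated. Which side holds more genes depended on the scaling: centring each array on its median gave 305 toward atria and 377 toward ventricles, while quantile normalization gave 374 and 278. At the threshold, Nr4a3 (1.0016) and Lonp1 (-1.0014) were just counted, and Gabrr1 (0.9955) and Fam126b (-0.9987) were not. At the floor, the brighter array of the last gene inside, Trit1, read 5.7064, and that of the first outside, Rnf113a2, 5.7057.

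Most of these genes also separated the wild type chambers, a comparison that shares no array with the knockout pair. In the wild type pair 390 genes (3.89% of 10035) passed 2-fold toward atria and 222 (2.21%) toward ventricles. Of the atrial genes 275 were in both lists, which is 78.6% of the knockout list and 70.5% of the wild type list. Of the ventricular genes 158 were in both, or 54.9% of the knockout list and 71.2% of the wild type list. Of the 87 genes past 4-fold toward atria in the knockout, 83 passed 2-fold in the wild type, and so did 24 of the 28 toward ventricles. The same sign was found in the wild type for 348 of the 350 atrial and 282 of the 288 ventricular genes. The 350 atrial genes, chosen on the knockout pair, had a median difference of 1.44 in the knockout and 1.48 in the wild type, and the 288 ventricular genes -1.23 and -1.06. No gene passed 2-fold in opposite ways in the genotypes. Across the 9829 genes above the floor in both pairs, Pearson's correlation of the chamber differences was 0.903 and Spearman's 0.811. Both coefficients run across genes, and genes are not replicates of one another. The plot of both chamber differences shows this spread around the diagonal.

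**Figure D1:**
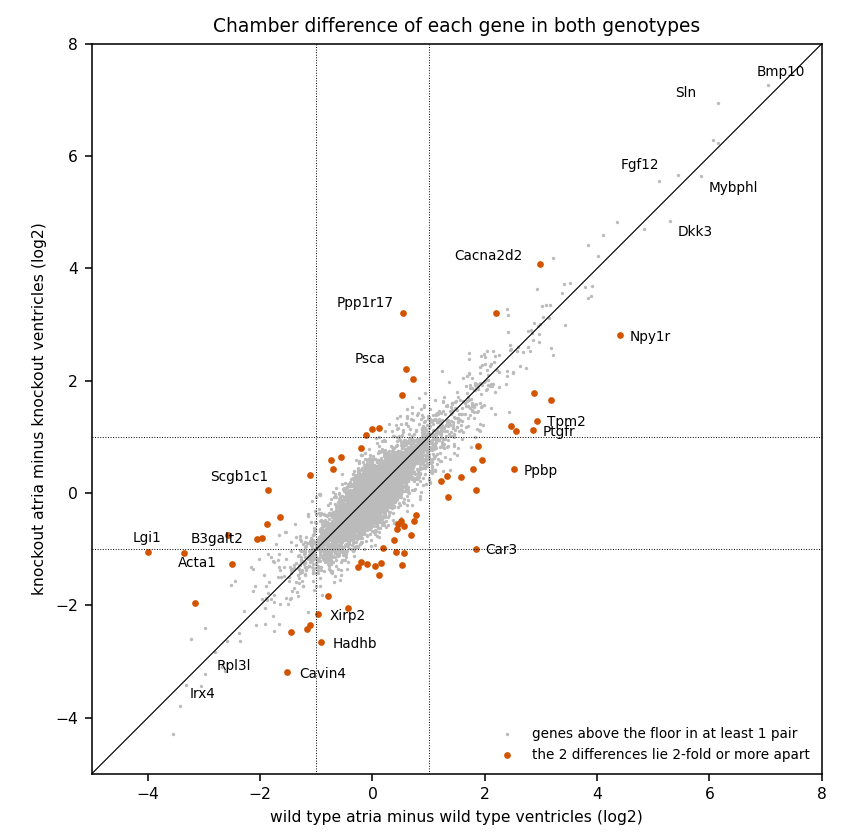
Each point is a gene at or above the floor in at least 1 pair, with its difference between wild type atria and ventricles on the horizontal axis and between knockout atria and ventricles on the vertical axis (both log2). Dotted lines mark 2-fold and the diagonal marks equal differences. Bmp10 and Sln lie at the upper end of the diagonal, and orange points, among them Car3, Lgi1, Ppp1r17 and Hadhb, are the 67 genes whose differences lie at least 2-fold apart.

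The genes with the largest differences toward knockout atria were known atrial genes. Bmp10, which encodes a growth factor of the bone morphogenetic protein family made by atrial muscle, read 11.30 in knockout atria and 4.04 in knockout ventricles, and 11.03 and 3.99 in the wild type chambers. Both ventricular arrays were below the floor, so the knockout difference of 7.26 is in part set by background and is given with no fold. Sln encodes sarcolipin, a small inhibitor of the sarcoplasmic calcium pump, and read 12.04 in knockout atria and 5.09 in knockout ventricles (difference 6.95), against 12.09 and 5.95 in the wild type. Its knockout ventricular value was below the floor and its wild type one just above it. Hamp, encoding the iron hormone hepcidin, read 10.25 and 3.96 (difference 6.29), with 10.12 and 4.05 in the wild type. Both ventricular arrays were below the floor for Hamp too.

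Kinase and sarcomere genes came next. Sbk3, a protein kinase gene of striated muscle, was at 10.50 in knockout atria and 4.26 in knockout ventricles (difference 6.23), and its relative Sbk2 at 9.23 and 4.995 (4.23). Mybphl, a relative of myosin-binding protein H, was at 10.92 and 5.28 (5.65). Myl7, the atrial regulatory light chain whose promoter is shown above, was at 12.19 and 6.64 (5.55), with 12.28 and 7.17 in the wild type. In each of these the wild type chambers lay as far apart to within 1.5-fold. For Sbk3, Sbk2 and Mybphl both ventricular arrays were below the floor, so the differences of both genotypes are in part set by background. Fgf12, an intracellular member of the fibroblast growth factor family that binds sodium channels, had a difference of 5.67, and Dkk3, a secreted protein of the Dickkopf family, 4.85. Both ventricular arrays of Fgf12 were below the floor as well.

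The 20 largest differences toward atria also held the chemokine gene Cxcl13 (4.70), the melanocyte gene Mlana (4.60), Tmem163 (4.41), Vsnl1 (4.19), Cacna2d2 (4.08) and the ryanodine receptor gene Ryr3 (3.74). Fbxw18 was at 8.03 in knockout atria and 3.21 in knockout ventricles (4.82). Stard10 (3.72), the gap junction gene Gja5 (3.69), the matrix gene Podn (3.67) and the cytokine receptor gene Cntfr (3.64) closed this group. All 20 were also past 2-fold in wild type atria, with wild type differences from 2.94 for Cntfr to 7.04 for Bmp10. Cxcl13, Tmem163, Vsnl1, Cacna2d2, Ryr3 and Fbxw18 also had both ventricular arrays below the floor.

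On the ventricular side the largest difference of a named gene was that of Irx4, a homeobox factor of ventricular muscle. Irx4 read 4.79 in knockout atria and 8.58 in knockout ventricles (difference -3.79), and 4.88 and 8.31 in the wild type, so both atrial arrays were below the floor. Bdh1, which encodes the mitochondrial enzyme that interconverts the ketone bodies, read 5.58 and 9.01 (-3.43), against 5.13 and 8.18 in the wild type. Lrtm1 read 7.52 and 10.94 (-3.42), and Rpl3l, the striated muscle form of a ribosomal protein, 5.22 and 8.43 (-3.21). An olfactory receptor gene had a difference of -4.30 and is counted only. Of 1068 olfactory receptor genes 16 lay above the floor and 5 of these passed 2-fold, where 6.3% of all genes above the floor did.

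Several of the largest ventricular differences in the knockout rested on a low knockout atria array. Cavin4, a coat protein of muscle caveolae, read 4.87 in knockout atria, 6.70 in wild type atria, and 8.06 and 8.22 in the knockout and wild type ventricles. Its difference was -3.19 in the knockout and -1.52 in the wild type. Hadhb encodes the beta subunit of the trifunctional protein, which carries out late steps of mitochondrial fatty acid oxidation, and read 6.42 in knockout atria and 9.08 in knockout ventricles, and 8.17 and 9.08 in the wild type. Agtr1a, the angiotensin receptor, read 6.55 and 9.02 in the knockout and 7.63 and 9.09 in the wild type. For all 3 genes the ventricular arrays nearly coincided and the atrial arrays did not.

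Thrsp and Ddc had the opposite layout. Thrsp, a regulator of lipid synthesis, read 6.31 in knockout atria and 8.67 in knockout ventricles (difference -2.36), against 5.72 and 6.84 in the wild type (-1.11). Ddc, aromatic amino acid decarboxylase, read 3.93 on both atrial arrays, 6.36 in knockout ventricles and 5.09 in wild type ventricles, so that both wild type arrays were below the floor. Here the knockout ventricles array was the high one. The rest of the 20 largest differences toward ventricles were Myot (-3.09), Smyd2 (-2.83), Sh3rf2 (-2.63), Kcnip2 (-2.63), Fgf16 (-2.60), Ankrd23 (-2.49), Asb15 (-2.45), Gbp6 (-2.40), Myl3 (-2.36), Asb5 (-2.34) and Nqo1 (-2.34). All of these passed 2-fold in the wild type too, from -1.66 for Nqo1 to -3.24 for Fgf16.

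Chamber identity genes were counted as lists. All gene lists were chosen with earlier results of these data known, so their counts and medians are no independent check of chamber identity. Among the 20 atrial identity genes that reached the floor, 18 passed 2-fold toward knockout atria (3.46% of all genes) and 0 toward knockout ventricles (2.85%). These shares over all genes, and 44.6% of genes with a positive value, stand beside every list count below. The median of the atrial identity list was 3.51 (3.21 in the wild type) against -0.05 for all genes. Among these 20 genes the chamber difference in the knockout was from 0.44 smaller to 0.80 larger than in the wild type. Tbx5, a T-box factor of atria, read 10.36 in knockout atria and 7.81 in knockout ventricles (2.56), and Nr2f2, the COUP-TFII gene, 8.21 and 6.38 (1.83). The atrial light chain gene Myl4 read 12.27 and 8.94 (3.33), and Nppa, the gene of atrial natriuretic peptide, 12.50 and 11.22 (1.28). Kcnk3 (0.30) and Kcna5 (-0.88), potassium channel genes, were the members above the floor that did not pass. Nr2f1 and Ntm were below the floor in the knockout pair, at 5.33 and 5.02 in knockout atria, while both read 6.02 in wild type atria. The counts, median and range above therefore leave them out. Their chamber differences were 0.84 and 0.71 in the knockout, against 1.35 and 1.45 in the wild type, where both passed 2-fold.

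Among 19 ventricular identity genes 12 passed 2-fold toward knockout ventricles (2.85% of all genes) and 0 toward atria (3.46%). The list median was -1.90 (-1.55 in the wild type). Myl2, the ventricular regulatory light chain, read 10.29 in knockout atria and 12.19 in knockout ventricles, and 10.33 and 12.20 in the wild type. Myl3, the ventricular essential light chain, read 9.70 and 12.06, and 9.94 and 12.02. Hey2, a Notch-responsive repressor, read 4.83 and 6.15 (-1.32). The chamber differences of the genotypes lay furthest apart within this list for Tesc, Myh7 and Casq1. Myh7, the slow myosin heavy chain, read 9.65 in knockout ventricles and 8.66 in wild type ventricles over atrial values of 7.53 and 7.51. Tesc, the calcium-binding protein tescalcin, read 8.41 in knockout and 9.08 in wild type ventricles over atrial values of 6.46 and 5.93. Casq1, the skeletal form of calsequestrin, read 5.02 and 5.72 in the knockout (-0.69), and 6.93 and 8.48 in the wild type (-1.55), so it was lower on both knockout arrays than on either wild type array. Hand1 (0.20) and Kcnj12 (0.36) were the members with a positive value.

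**Figure D2:**
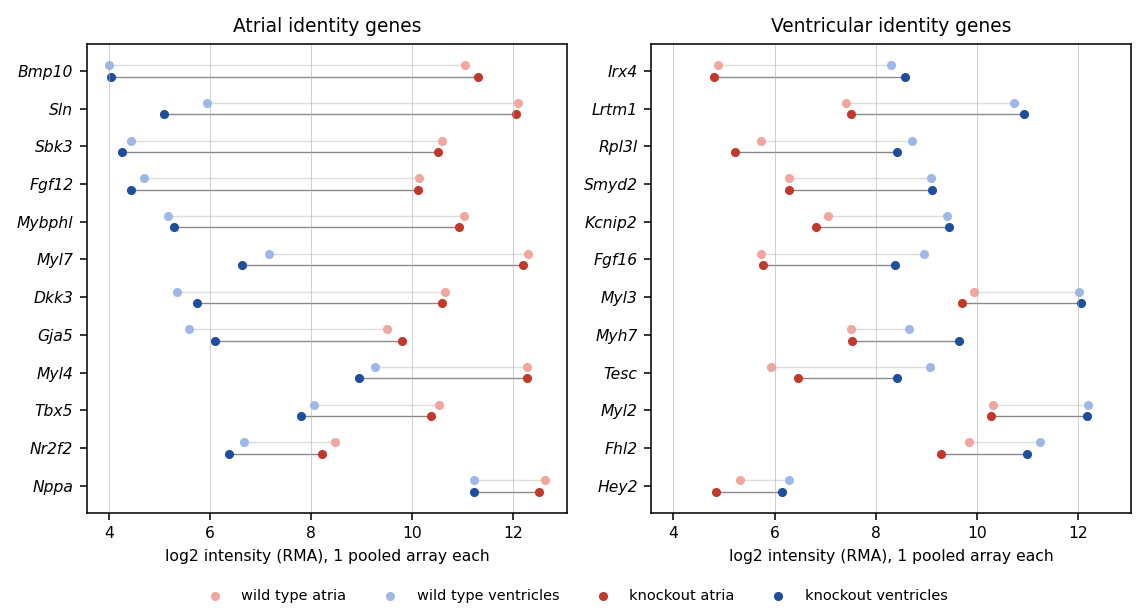
Level of 12 atrial and 12 ventricular identity genes on each of the 4 arrays (log2 intensity, 1 pooled array per point), with a line joining the chambers of a genotype. Dark points are knockout arrays and pale points wild type arrays. Bmp10 spans 4.04 to 11.30 in the knockout, and for most genes the dark and pale points of a chamber lie close together. Myh7 in ventricles (9.65 and 8.66) and Tesc are among the exceptions.

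Transcription factors of the heart went both ways. Of 29 above the floor 3 passed 2-fold toward knockout atria (3.46% of all genes), which were Tbx5, Nr2f2 and Gata5. Toward ventricles 4 passed (2.85% of all genes), which were Irx4, Hey2, Prdm16 (-1.31) and Prrx1 (-1.13). The list median was -0.0037 (-0.05 in the wild type), and its sign turned under several settings. Gata5, a zinc finger factor of endocardium, read 6.54 in knockout atria and 5.05 in knockout ventricles (1.49), with 6.16 and 5.29 in the wild type (0.87). Of the factors of the whole heart, Gata4 was at -0.03 and the MEF2 partner gene Myocd at -0.13, while Nkx2-5 (0.41) and Tbx20 (0.64) lay above the upper quartile of all genes, 0.20, without passing 2-fold. Irx3, a homeobox gene of the conduction system, was at -0.14 in the knockout and -1.07 in the wild type, with 5.75 in knockout atria and 5.15 in wild type atria.

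None of the 8 MEF2 and deacetylase genes passed 2-fold, and their median was 0.03 (0.01 in the wild type). Over all genes 6.3% passed either way, so the lack of such a gene in a list this short says little. Mef2b read 5.77 and 5.36 (0.41), Mef2c 9.07 and 9.10 (-0.03), and Mef2d 9.02 and 9.21 (-0.19). The differences of Mef2a (0.07) and Mef2c had signs that turned under another scaling, and the largest of the deacetylases was that of Hdac7 (0.29). Of 14 reported MEF2 target genes 13 had negative values, with a median of -0.52 (-0.41 in the wild type), and 3 passed 2-fold toward knockout ventricles: Xirp2, Myl2 and Acta1. Xirp2, an actin-binding protein of the intercalated disc, read 6.76 in knockout atria and 8.91 in knockout ventricles, against 8.999 and 9.98 in the wild type, so its difference was -2.15 and -0.98. Acta1, the skeletal type of alpha actin, read 6.84 and 8.10 in the knockout and 7.42 and 9.92 in the wild type, so its difference was -1.25 and -2.50. Both genes were lower on both knockout arrays than on the wild type array of the same chamber, Xirp2 by more in atria and Acta1 by more in ventricles. Nr4a1, an orphan nuclear receptor gene, was the positive member at 0.84.

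In the thick filament 4 of 17 genes passed 2-fold toward knockout atria (3.46% of all genes) and 4 toward ventricles (2.85%). The list median was -0.09 (-0.06 in the wild type). The atrial members were Mybphl, Myl7, Myl4 and Myl9, a regulatory light chain also made in smooth muscle, which read 11.24 and 8.11 (3.13). The ventricular members were Myl3, Myh7, Myl2 and Myh7b (-1.14). Myh6, the alpha myosin heavy chain that dominates the adult mouse heart, was at -0.09 and titin (Ttn) at -0.13. Mybpc3, cardiac myosin-binding protein C, was at -0.72. Myl1, an essential light chain gene of fast muscle, was not counted because both knockout arrays lay below the floor, at 5.66 and 4.47, while the wild type arrays read 9.43 and 8.09.

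In the thin filament 2 of 17 genes passed 2-fold toward each side (3.46% of all genes toward atria and 2.85% toward ventricles). The list median was -0.11 (-0.13 in the wild type). Tpm2, beta tropomyosin, read 9.25 in knockout atria and 7.96 in knockout ventricles (1.29), and 9.42 and 6.48 in the wild type (2.93). Neb, the giant thin filament protein nebulin, read 6.49 and 5.15 (1.34), and 7.10 and 6.66 in the wild type (0.44). In both genes the genotypes differed more on the ventricular than on the atrial arrays, in opposite directions. Lmod3 (-1.60) and Acta1 were higher in knockout ventricles, while the cardiac forms of actin (Actc1, -0.11), troponin T (Tnnt2, -0.11) and troponin I (Tnni3, -0.10) lay near the median of all genes.

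The Z-disc and costamere list leaned to ventricles, with 7 of 32 genes past 2-fold toward knockout ventricles, 0 toward atria, 5 positive values and a median of -0.33 (-0.32 in the wild type). Over all genes 2.85% passed 2-fold toward ventricles and 44.6% had a positive value. In the wild type pair 4 passed. After Cavin4 came Myot, the actin-bundling protein myotilin, at 5.84 in knockout atria and 8.94 in knockout ventricles, against 5.93 and 8.61 in the wild type. Ankrd23, a muscle ankyrin repeat protein, read 8.78 and 11.27, and Fhl2, a LIM domain protein, 9.30 and 10.99. Itga7, the muscle integrin of the costamere, read 7.09 and 8.51 (-1.42), and 8.03 and 8.75 in the wild type (-0.72). For Itga7, Xirp2 and Cavin4 the knockout atria array was the lowest of the 4. Actn2, the main crosslinker of the Z-disc, was at -0.16, and the stretch-responsive gene Ankrd1 at 0.39.

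Genes of calcium handling had a median of -0.27 (-0.23 in the wild type). Of 28 genes 3 passed 2-fold toward knockout atria (3.46% of all genes) and 2 toward ventricles (2.85%). Of the 6 calcium channel subunit genes above the floor, Cacna2d2 and Cacna1d passed toward atria, Cacna2d1 and Cacna1c toward ventricles, and Cacnb2 (-0.28) and Cacna1g (-0.33) did not pass. Cacna2d2, an auxiliary subunit, read 9.37 in knockout atria and 5.29 in knockout ventricles (4.08), and 8.22 and 5.24 in the wild type (2.98), and Cacna1d, a pore subunit of pacemaker tissue, was at 1.33. The other auxiliary gene Cacna2d1 was at -1.22, and Cacna1c, the main pore subunit of working muscle, at -1.003, which missed 2-fold under quantile normalization (-0.92) and lowess centring (-0.87). The calcium pump gene Atp2a2 (-0.04) and the release channel gene Ryr2 (-0.09) were near 0, and phospholamban (Pln) was at -0.26. Triadin (Trdn), at -0.94, and the histidine-rich calcium binding protein gene Hrc, at -0.69, stood lower in atria without passing.

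Among 23 potassium channel genes 3 passed 2-fold toward each chamber (3.46% of all genes toward atria and 2.85% toward ventricles). The list median was 0.21 (0.12 in the wild type). Kcnj3, a subunit of the acetylcholine-gated channel that slows the atria, read 11.22 in knockout atria and 8.74 in knockout ventricles (2.48), and its partner Kcnj5 9.43 and 8.30 (1.13). The sulfonylurea receptor genes went opposite ways: Abcc8 was at 1.28 and Abcc9 at -1.88. Kcnip2, an auxiliary subunit of the transient outward current, read 6.81 and 9.45 (-2.63), and Kcne1 5.60 and 6.91 (-1.32), with 4.79 and 6.95 in the wild type. Kcnj2, the inward rectifier, read 6.58 and 7.51 (-0.93), and 7.37 and 7.81 in the wild type (-0.44). Of 8 genes of sodium and pacemaker channels and connexins (median -0.02, and -0.14 in the wild type), Gja5 passed toward knockout atria, at 9.79 against 6.10, and Hcn2 toward ventricles, at 5.95 against 7.69 (-1.74). The main ventricular connexin gene Gja1 was at -0.21. Hcn4, the channel of the sinus node, read 5.75 and 6.13 (-0.38) in the knockout and 5.79 and 6.93 (-1.14) in the wild type.

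**Figure D3:**
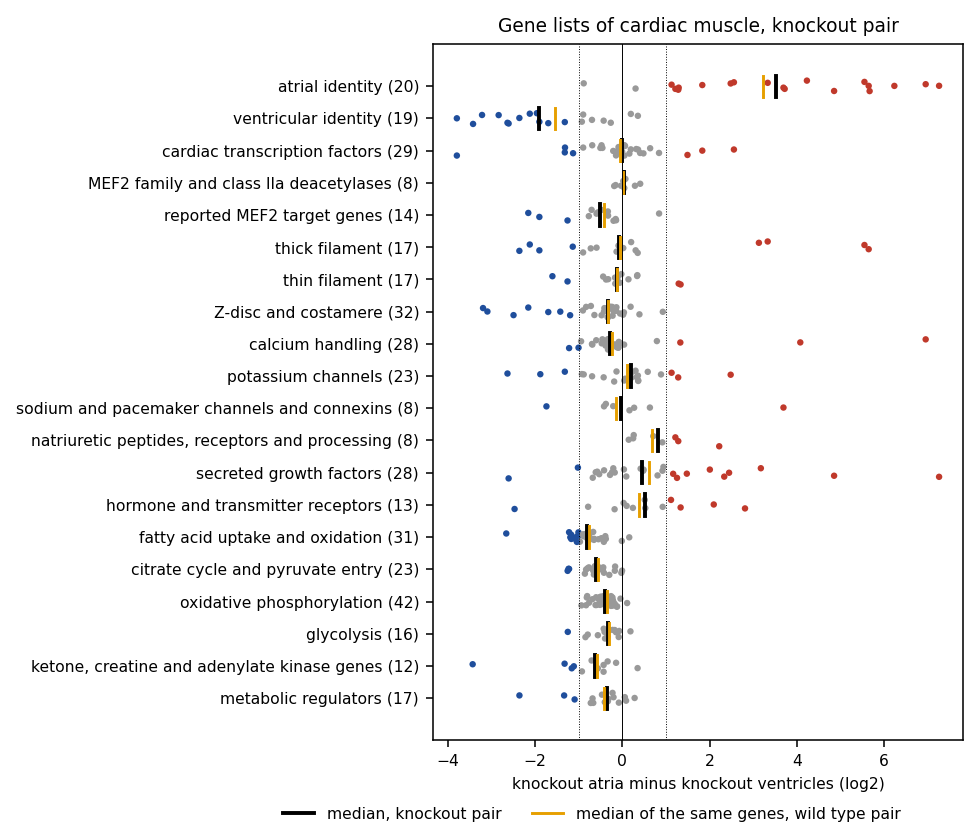
Difference between knockout atria and knockout ventricles (log2) for every member above the floor of each list of cardiac muscle genes, with the number of members in brackets. Red and blue points passed 2-fold toward atria and ventricles, and bars give the list median in the knockout pair (black) and of the same genes in the wild type pair (orange). The fatty acid, citrate cycle and oxidative phosphorylation lists lie to the left of 0 with medians of -0.82, -0.60 and -0.40, and the atrial identity median is 3.51.

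Genes of natriuretic signalling were all positive, 8 of 8 (44.6% over all genes), with a median of 0.81 (0.68 in the wild type). Of these 3 passed 2-fold toward knockout atria (3.46% of all genes). Npr3, the clearance receptor, read 10.05 in knockout atria and 7.83 in knockout ventricles (2.22), and 9.89 and 7.15 in the wild type. Pam, the enzyme that amidates peptides in atrial granules, read 11.85 and 10.64 (1.22). Nppb, B-type natriuretic peptide, read 11.27 and 10.56 (0.71), and 10.80 and 10.11 in the wild type, so its chamber difference was 0.69 there. The activating enzyme genes Corin (0.92) and Furin (0.25) did not pass.

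Of 28 secreted growth factor genes above the floor 9 passed 2-fold toward knockout atria (3.46% of all genes) and 2 toward ventricles (2.85%). The list median was 0.45 (0.62 in the wild type). After Bmp10 and Dkk3, the bone morphogenetic protein gene Bmp5 read 8.07 in knockout atria and 4.89 in knockout ventricles (3.17), and 7.04 and 4.62 in the wild type (2.42). Igf2 (2.45), the vasodilator peptide gene Adm (2.34), Fgf7 (2.01), Nrg2 (1.48), Tgfb3 (1.25) and Sfrp2 (1.17) made up the rest of the atrial members. For Bmp5, Fgf7 and Nrg2 both ventricular arrays lay below the floor, so their differences are in part set by background. Fgf16 read 5.77 and 8.38, and Fgf9 5.13 and 6.15 (-1.02), and these were the ventricular members. Vegfa was at -0.42 and Vegfb at -0.28.

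Receptors of hormones and transmitters had 4 of 13 genes past 2-fold toward knockout atria (3.46% of all genes) and Agtr1a toward ventricles (2.85%). The list median was 0.51 (0.37 in the wild type). Npy1r, a neuropeptide Y receptor, read 5.83 in knockout atria and 3.02 in knockout ventricles (2.81), against 7.57 and 3.16 in the wild type (4.41). Ptgfr, the prostaglandin F receptor, read 5.77 and 4.66 (1.12, and 0.97 under lowess centring), against 7.79 and 4.93 (2.86). In both the knockout atria array was the one that differed and stood just above the floor. For Npy1r, Ptgfr and Glp1r both ventricular arrays lay below the floor, so their differences are in part set by background. Glp1r, the incretin receptor, read 6.14 and 4.05 (2.10), almost the same as 6.10 and 4.05 in the wild type, and the endothelin receptor gene Ednrb was at 1.34. The muscarinic receptor gene Chrm2 was at 0.93.

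Energy metabolism leaned to the ventricles in the knockout, as in the wild type. Of 31 genes of fatty acid uptake and oxidation 30 were negative and 10 passed 2-fold toward knockout ventricles (2.85% of all genes), with a median of -0.82 (-0.76 in the wild type) and no member past 2-fold toward atria. Beside Hadhb these were the acylcarnitine carrier gene Slc25a20 (-1.22), Ech1 (-1.19), the lipid droplet gene Plin5 (-1.17), Eci1 (-1.17), the fatty acid-binding protein gene Fabp3 (-1.11), Cpt2 (-1.04), Ucp3 (-1.04), Acadvl (-1.02) and the fatty acid transporter gene Cd36 (-1.01). Hadha, which encodes the partner of HADHB in the trifunctional protein, read 10.66 in knockout atria and 11.56 in knockout ventricles (-0.90), and 10.73 and 11.57 in the wild type. Hadha did not share the low knockout atria value of Hadhb. Pdk4, the kinase that closes pyruvate entry, read 10.85 and 10.86.

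All 23 genes of the citrate cycle and pyruvate entry were negative, with a median of -0.60 (-0.55 in the wild type). Over all genes 44.6% were positive. Dld, a subunit shared by the pyruvate and oxoglutarate dehydrogenases, read 9.07 in knockout atria and 10.32 in knockout ventricles, the pyruvate carrier gene Mpc1 8.80 and 10.03, and Sucla2 9.41 and 10.63. These were the 3 past 2-fold (2.85% of all genes), where the wild type pair had 1. Differences in oxidative phosphorylation ran from -0.94 to 0.11: 41 of 42 genes were negative, none passed 2-fold, and the median was -0.40 (-0.35 in the wild type). The largest were those of Uqcrfs1 (-0.94), which passed 2-fold when arrays were centred on their medians (-1.03), and Ndufs6 (-0.83).

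Glycolysis had 15 of 16 negative values and a median of -0.34 (-0.31 in the wild type), with the hexokinase gene Hk2 past 2-fold toward knockout ventricles (-1.25). In the group of ketone, creatine and adenylate kinase genes 4 of 12 passed toward ventricles, with a median of -0.63 (-0.58 in the wild type). Oxct1, the enzyme that activates ketone bodies for use, read 9.42 and 10.74 (-1.32), and after Bdh1 and Oxct1 came the mitochondrial creatine kinase gene Ckmt2 (-1.16) and Ak4 (-1.11). Metabolic regulators had 3 of 17 past 2-fold toward ventricles and a median of -0.36 (-0.43 in the wild type). Perm1, whose promoter is shown above, read 8.25 and 9.59 (-1.33), and 8.07 and 9.46 in the wild type. Tfam, a factor that maintains mitochondrial DNA, read 5.97 and 7.07 (-1.09), and 6.57 and 7.05 in the wild type (-0.47). Ppara was at -0.72, Esrrg at -0.40 and Ppargc1a at -0.20.

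Lists of tissue state were mixed. Of 14 stress and fetal cardiac genes 3 passed toward knockout atria, which were Atf3 (1.62), Ccn2 (1.58) and Nppa, and 3 toward ventricles, which were Myh7, Acta1 and Acta2 (-1.03, and -0.88 under lowess centring). The list median was 0.24 (0.30 in the wild type). Ccn2, connective tissue growth factor, read 11.08 in knockout atria and 9.50 in knockout ventricles, above 10.22 and 8.81 in the wild type. Immediate early genes had 3 of 12 past 2-fold toward knockout atria (3.46% of all genes). Their median was 0.44 (0.47 in the wild type), and Fos was at 1.18. Nr4a3, just past 2-fold at 1.0016, missed it under each of the 3 other scalings (0.88 to 0.94). In the interferon list 2 of 15 passed toward ventricles, with a median of -0.38 (-0.47 in the wild type). Gbp6 read 5.67 in knockout atria and 8.07 in knockout ventricles, and the chemokine gene Cxcl9 5.78 and 6.81. None of 17 circadian clock genes passed (median 0.14, and 0.19 in the wild type), nor did any of 18 cytosolic ribosomal protein genes (median -0.02, and 0.16 in the wild type). With 6.3% of all genes past 2-fold either way, the lack of one in lists this short says little.

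Markers of other cell types also separated the chambers. In bulk tissue, fewer cells of a type and less RNA per cell cannot be told apart, and the part of cell makeup in the muscle lists above was not tested. Epicardial and mesothelial markers stood highest: all 16 above the floor were positive, 10 passed 2-fold toward knockout atria (3.46% of all genes), and the median was 1.16 (1.26 in the wild type). Gpm6a read 8.66 in knockout atria and 5.97 in knockout ventricles, the uroplakin genes Upk3b 8.79 and 6.28 and Upk1b 7.39 and 4.66, and the mesothelin gene Msln 7.44 and 5.47. The defining epicardial factor Wt1 differed less, at 7.17 and 6.82. Values of the list lay between 5.76 and 8.79 in knockout atria and between 4.66 and 6.82 in knockout ventricles.

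Fibroblast and matrix genes had 24 of 27 positive values (44.6% over all genes), 6 past 2-fold toward knockout atria and a median of 0.58 (0.69 in the wild type). Mfap4, a microfibril protein, read 9.75 and 7.89 (1.86), Fbln1 10.11 and 8.47 (1.64), and the fibroblast factor gene Tcf21 7.33 and 5.995 (1.34). The elastin gene Eln (1.05) missed 2-fold when arrays were centred on their medians (0.96). The collagen genes Col1a1 (0.41) and Col3a1 (0.51) and the receptor gene Pdgfra (0.60) did not pass. Lum stood at 0.16 in the knockout and 0.95 in the wild type, with 8.73 in knockout and 9.57 in wild type atria.

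Endothelial markers were divided, with 13 positive and 12 negative values, 3 of 25 past 2-fold toward knockout atria and a median of 0.07 (-0.17 in the wild type) whose sign turned under median centring. Plvap, a protein of fenestrated endothelium, read 8.43 and 6.17 (2.26), and Vwf 9.48 and 7.60 (1.88). Pecam1 (0.32) and Cdh5 (-0.23), found on all endothelium, did not pass 2-fold, though Pecam1 lay above the upper quartile of all genes, 0.20. The apelin receptor gene Aplnr was at -1.07 (-0.97 under lowess centring). Npr3, given above, was the other atrial member. Smooth muscle markers had a median of -0.42 (-0.41 in the wild type). Cnn1, calponin, read 6.59 in knockout atria and 5.39 in knockout ventricles (1.20), against 7.88 and 5.40 in the wild type (2.47), while Abcc9 and Acta2 passed toward ventricles and Myh11 was at -0.21. Macrophage and leukocyte markers had a median of 0.21 with Lyve1, also a lymphatic marker, the 1 of 17 past 2-fold (1.16).

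Lymphatic markers had a median of 0.44 over 5 genes (0.80 in the wild type). Conduction system genes went both ways: 5 of 13 passed 2-fold toward knockout atria (3.46% of all genes) and 0 toward ventricles, 7 were negative, and the median was -0.10 (-0.18 in the wild type). Vsnl1, a neuronal calcium sensor, read 8.70 in knockout atria and 4.51 in knockout ventricles (4.19), and 7.38 and 4.17 in the wild type (3.21). Cpne5 was at 2.99, the factor gene Etv1 at 1.66, Cacna1d at 1.33 and Rgs6, a brake on G protein signalling, at 1.29. The negative members were Smoc2 (-0.86), the conduction factor gene Tbx3 (-0.50), the connexin gene Gjc1 (-0.42), Hcn4 (-0.38), Cacna1g (-0.33), Irx3 (-0.14) and Cntn2 (-0.10). The sinus node factor genes Shox2 and Isl1 were below the floor on every array. Of 8 valve, tendon and cartilage genes the matrix genes Comp (1.92) and Fmod (1.20) passed, with a median of 0.40 (0.45 in the wild type). Of 20 skeletal muscle genes 5 were above the floor and none passed 2-fold (median -0.69, and -0.67 in the wild type). Of 16 measured genes of lung, thymus and liver 13 were below the floor, and Trf passed at 1.27 (median over the 3 above it 0.24). Blood genes were lower in knockout atria for Hbb-bt (7.00 and 8.40, difference -1.40) and Alas2 (-1.19), while the platelet genes Pf4 (0.37) and Gp9 (0.29) did not pass, and the list median was 0.29 (0.68 in the wild type). The adipose genes Cidec, Lep, Plin1 and Adipoq did not reach the floor on any of the 4 arrays, Scd1 was at 1.14 and Cidea at -1.10, and the median over 5 genes was -0.52 (0.51 in the wild type). In the neuron and glia list 4 genes were above the floor and none passed (median 0.57, and 0.56 in the wild type).

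**Figure D4:**
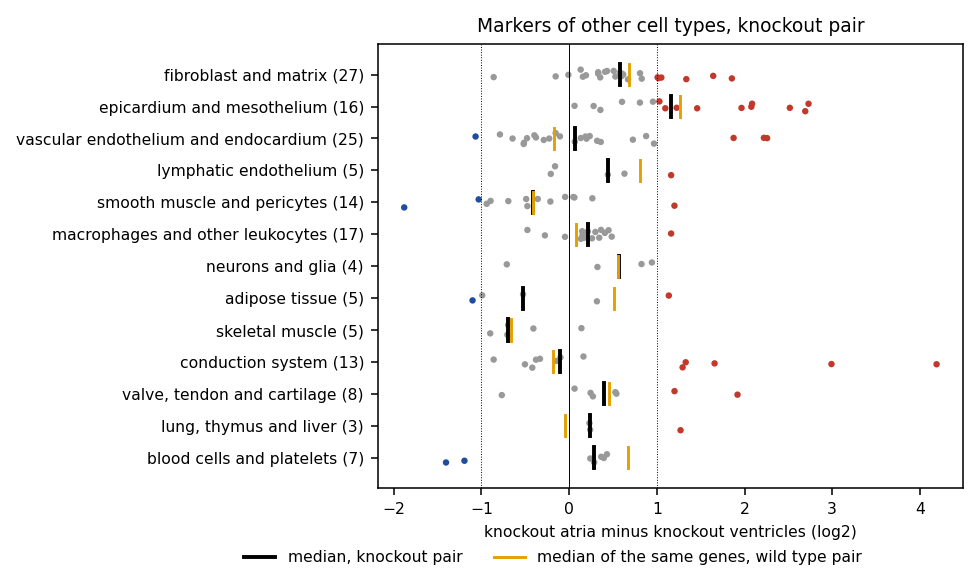
Difference between knockout atria and knockout ventricles (log2) for markers of cells other than heart muscle, drawn as for the muscle lists. The epicardial list lies wholly to the right of 0 with a median of 1.16, the fibroblast median is 0.58, and the endothelial list straddles 0 with a median of 0.07.

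Some genes passed 2-fold in the chambers of 1 genotype only: 75 toward atria and 130 toward ventricles in the knockout alone, and 115 and 64 in the wild type alone. Most of these lay near the threshold. Of the 75 and 130, 55 and 97 reached 1.5-fold the same way in the wild type, and of the 115 and 64, 85 and 50 did so in the knockout. The other pair lay below the floor for 17 of the 75, 10 of the 130, 22 of the 115 and 10 of the 64. A threshold passed in 1 genotype does not show that the chambers differ between genotypes, which could not be tested. Over 10327 genes above the floor in either pair, the chamber differences of the genotypes lay at least 2-fold apart for 67 (0.649%), 24 (0.232%) shifted toward atria in the knockout and 43 (0.416%) toward ventricles. The 34 genes named below are those with such a distance among the genes past 2-fold in 1 genotype only, up to 10 for each kind, and they are not all of them. Such a distance was found for 7 genes toward atria and 14 toward ventricles in the knockout alone, and for 12 and 9 in the wild type alone. Of the 34 named genes 32 kept this distance under all 3 other scalings, and Aldh1b1 and Shisa6 did not.

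Toward atria in the knockout alone, Ppp1r17, an inhibitor of protein phosphatases, read 6.04 in knockout atria and 2.83 in knockout ventricles (3.21), against 3.68 and 3.15 in the wild type (0.54). Psca, a surface glycoprotein, read 8.35 and 6.14 (2.22), against 5.28 and 4.69 (0.59), so that both knockout arrays were above both wild type arrays. P4ha3, a subunit of collagen prolyl hydroxylase, read 6.47 and 4.44 (2.03), against 5.32 and 4.60 (0.72). Cdcp1 (1.74), Shisa6 (1.16) and Fstl4 (1.14) were the others, and Fstl4 differed through its knockout ventricles array, at 5.10 against 6.09 to 6.24 on the other arrays. For Ppp1r17, P4ha3, Cdcp1 and Shisa6 the knockout atria array was the only one above the floor, so their differences are in part set by background.

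Toward ventricles in the knockout alone, Hadhb, Xirp2 and Ddc are described above. Ddc also passed 2-fold in size in the wild type (-1.16, against -2.43 in the knockout), but was not counted there because both arrays lay below the floor. Cubn, the endocytic receptor cubilin, read 4.88 in knockout atria and 6.93 in knockout ventricles (-2.05), against 4.73 and 5.16 in the wild type (-0.43), and Prrg4 4.82 and 6.10 (-1.28), against 4.99 and 4.46. In Cubn and Prrg4 the knockout ventricles array was the only one above the floor. Another 5 genes had a low knockout atria array: the splicing factor Srsf3 read 5.16 and 6.23 against 6.60 and 6.03, the capping protein of actin Capza1 4.87 and 6.34 against 6.16 and 6.04, and the chromatin protein Hmgb1 4.71 and 6.01 against 5.9996 and 5.95. Nudt21, a factor of messenger RNA 3' ends, read 5.50 and 6.55 against 6.45 and 6.04, and the histone gene H2ac21 4.51 and 5.75 against 5.77 and 5.63. In these 5 genes the knockout atria array stood below the floor and the other arrays did not, except the wild type ventricles array for H2ac21. The knockout atria array also had the narrowest interquartile range, 2.97, and the part of that in these values was not tested.

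Toward atria in the wild type alone, Ppbp, a platelet chemokine, read 8.69 in wild type atria and 6.17 in wild type ventricles (2.52), against 6.57 and 6.14 in the knockout (0.43). Cyp2e1, a cytochrome P450, read 6.57 and 4.73 (1.85), against 4.86 and 4.81, both below the floor. Car3, carbonic anhydrase 3, read 7.58 and 5.74 (1.84), against 5.50 and 6.48 (-0.99). Sema6c, a guidance cue, read 7.57 and 5.61 against 6.03 and 5.43, and Prkar2b, a regulatory subunit of protein kinase A, 6.71 and 5.13 against 5.63 and 5.34. In all 5 the wild type atria array was the highest of the 4. Nrgn, Ctla2a, Rab33a and Plppr5 had that layout too, with knockout differences of -0.07, 0.43, 1.66 and 1.10. Rab33a and Plppr5 reached 2-fold in the knockout in size, but their brighter knockout array lay below the floor, at 4.82 and 4.68. Aldh1b1 differed through its ventricular arrays, with 7.22 in the knockout and 6.22 in the wild type.

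Toward ventricles in the wild type alone, Lgi1, a secreted protein of synapses, read 4.13 in wild type atria and 8.12 in wild type ventricles (-3.99), against 3.63 and 4.68 in the knockout. B3galt2, a galactosyltransferase, read 4.05 and 7.40 (-3.35), against 3.86 and 4.93. Both knockout arrays were below the floor for these genes, so their knockout differences of -1.05 and -1.07 were not counted. Cyfip2, a regulator of actin assembly, read 5.19 and 7.77 against 5.67 and 6.43, Fam81a 6.08 and 8.13 against 5.18 and 6.0015, and Tnfaip8 5.80 and 7.77 against 5.53 and 6.32. Tmprss13, a membrane protease, read 5.23 and 6.88 against 4.86 and 5.29. In these 6 genes the wild type ventricles array was the highest. Scgb1c1 and Ptgds were the opposite case, high on 3 arrays and low in wild type atria: Scgb1c1, a secretoglobin, read 6.93 and 8.79 against 8.60 and 8.55, and Ptgds, prostaglandin D synthase, 8.69 and 10.57 against 10.27 and 10.82.

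**Figure D5:**
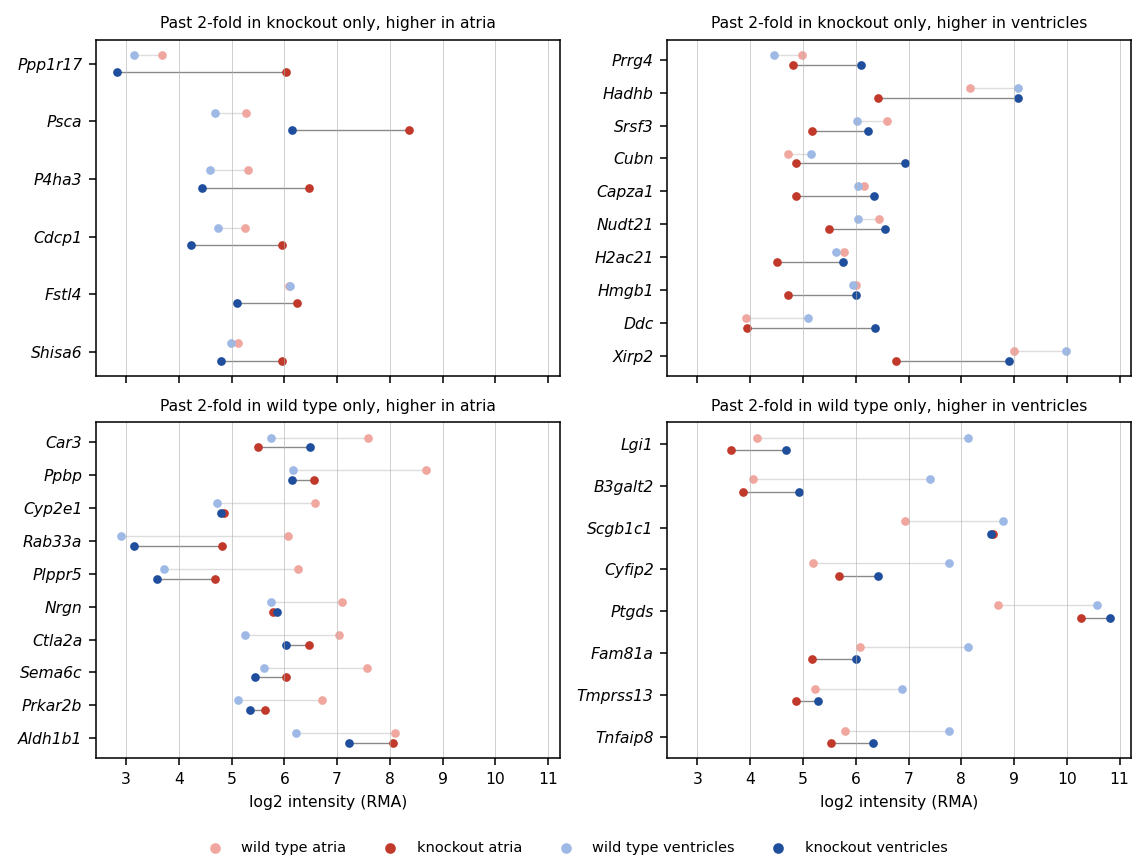
Levels on the 4 arrays (log2 intensity, 1 pooled array per point) of the 34 named genes past 2-fold between chambers in 1 genotype only, with a line joining the chambers of each genotype. Dark points are knockout and pale points wild type arrays. Lgi1 spans 4.13 to 8.12 in the wild type and 3.63 to 4.68 in the knockout, while Ppp1r17 spans 2.83 to 6.04 in the knockout and 3.15 to 3.68 in the wild type.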

How the data were processed

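The 4 arrays measured atria and ventricles of wild type and Mef2a knockout mice, 1 pooled array each. The table that the authors deposited holds log2 intensities of probe sets, which RMA and the affy package produced per the submitters' processing notes (versions and array design not given in the sources used here). Of 21212 probe sets 18786 had 1 symbol in the platform annotation, 6 several and 2420 no entry. Symbols were updated through RefSeq GRCm38.p6, 18775 by gene number and 4 by accession, with 7 kept. Where 3 symbols had several probe sets, the brightest by mean was kept.

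Each result is a difference of 2 log2 values at 2-fold with a floor at the 50th percentile of all values. No test was possible with 1 array per group, and the number of arrays limits the precision. The wild type pair was treated alike. Counting was tested on simulated data. The genes compared and the 39 lists (771 genes, 694 with a named probe set) were chosen with earlier results of these data known. Named genes were the 20 highest and 20 lowest differences, up to 4 members past 2-fold per list and direction (the 2 largest where none passed), up to 10 genes per direction past 2-fold in 1 genotype only whose differences lay 2-fold apart, genes past it in opposite ways, MEF2 genes, and Xist with Y-linked genes. Further list members are given as values, and Asb14 and the promoters shown were chosen after their values were seen. Genes known by prediction only, small RNAs, receptor segments of lymphocytes, and odorant and pheromone receptors were counted without names. Alternatives were 3 floors, 3 scalings, 1.5-fold and 4-fold, and all probe sets. Python 3.11.15, pandas 2.3.3, numpy 2.4.6 and statsmodels 0.14.6 (lowess, span 0.3) were used.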

Additional observations from a re-analysis of the deposited data

Results flagged for a closer look

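Car3, encoding carbonic anhydrase 3, was the gene above the floor in both pairs that passed 2-fold between chambers in 1 genotype and went at least 1.5-fold the other way in the other. Its chamber difference was -0.99 in the knockout and 1.84 in the wild type. Wild type atria stood highest at 7.58 and knockout atria lowest at 5.50, with 5.74 in wild type and 6.48 in knockout ventricles. The difference between genotypes was not tested, because each group is 1 array. Car3 stands in the adipose list, whose part in this value was not tested. Of its 14 other measured members, 8 (Cidec, Lep, Plin1, Adipoq, Ucp1, Elovl3, Pck1 and Retn) lay below 5.71 on all knockout and ventricular arrays, and of these Retn reached the floor in wild type atria (5.73). Cyp2e1 (6.57 in wild type and 4.86 in knockout atria) and Acaca (5.86 and 5.17) were above it in wild type atria only. Scd1 was above it on every array and read 9.13 in wild type and 8.21 in knockout atria. Fasn (7.42 and 7.18), Lipe (7.53 and 7.46) and Cidea (6.39 and 6.68) were above it on every array as well.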

How the results depend on the processing

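No paired analysis was possible because each group is 1 array and the labels carry no replicate numbers, and no array could be left out. The 350 atrial and 288 ventricular genes became 219 and 200 with the floor at the 75th percentile (243 genes past 2-fold in 1 genotype only, against 384) and 201 and 215 with both arrays above the floor (266 past it in both genotypes, against 433). At 1.5-fold there were 789 and 1026 (1191 in both, 1063 in 1 only), and at 4-fold 87 and 28 (84 and 67). Of the calls, 301 atrial and 238 ventricular genes passed under all 3 other scalings too.

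List medians whose sign turned were these. Without a floor they were 0.0473 for cardiac transcription factors, 0.0165 for the thick filament, 0.20 for sodium and pacemaker channels and connexins, -0.16 for lymphatic endothelium, 0.047 for adipose tissue, 0.14 for skeletal muscle, 0.16 for the conduction system and -0.16 for sex-linked genes. With the 75th percentile floor they were 0.0473 for transcription factors, 0.27 for sodium channels and connexins, 1.48 for the conduction system, -1.30 for blood and -0.0177 for sex-linked genes. With both arrays above the floor they were 0.0218 for transcription factors, -0.19 for neurons and -0.41 for blood. Centring on the median gave -0.0562 for the MEF2 family, -0.0251 for endothelium and -0.0371 for sex-linked genes. Quantile normalization gave 0.0499 for transcription factors, 0.0713 for sodium channels and connexins and 0.0857 for ribosomal proteins. Lowess centring gave 0.0549 for transcription factors, 0.11 for the thick and 0.0574 for the thin filament, 0.0728 for sodium channels and connexins and 0.10 for ribosomal proteins. Single genes near 0 turned as well: under median centring Cyp2e1 (-0.0434), Mef2a (-0.0192), Scgb1c1 (-0.0413) and Uty (-0.0371), under quantile normalization Cyp2e1 (-0.11) and Mef2c (0.0642), and under lowess centring Cyp2e1 (-0.12) and Mef2c (0.0864). The cause was not tested. Genes at the floor are limited by background, and no change of setting stands in for replicate arrays.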
